A study of Mus musculus with 6 samples.

Results

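Muc13, Zg16 and Clca3b were the 3 genes taken here from a table of 1386 genes and loci that the authors had selected as differing between intestinal epithelial cells of mice given Akkermansia muciniphila (Akk) and of mice given PBS. The 3 were picked by name from that table, and the values that placed them in it are the ones described below. The direction of each gene was therefore fixed by its selection, its values are given as a description, and no p-value of these libraries is attached to them. Each group had 3 libraries with replicate numbers 1 to 3. All came from intestinal epithelium of wild-type (WT) mice on regular chow. The Akk mice received 400000000 bacteria per day by mouth for 7 weeks from 8 weeks of age, and the control mice received PBS, the buffer that carried no bacteria. The title of the series asks about lipid absorption and AMPK in the jejunum. The labels do not say whether a library is 1 mouse or a pool, so the spread between libraries may in part be technical.

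The gut surface is covered by mucus that keeps microbes away from the epithelium, and A. muciniphila is known for growing on mucin sugars. Goblet cells secrete gel-forming mucin together with lectins and other granule proteins, while enterocytes carry transmembrane mucins on their brush border. Muc13 encodes one of these transmembrane mucins. Zg16 encodes a small secreted lectin of goblet cell granules that binds the cell wall of Gram-positive bacteria. Clca3b encodes a member of the CLCA family, named for calcium-activated chloride conductance. The CLCA protein that is a major component of intestinal mucus is Clca1, once called gob-5, and it is not among the genes of the table. Clca3b is thus grouped with Muc13 and Zg16 by its family name, and a role of Clca3b in mucus is not a fact that these data bear on.

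Muc13 lies on chromosome 16 (33794037 to 33819934, plus strand, GRCm38), Zg16 on chromosome 7 (127050156 to 127087328, minus strand) and Clca3b on chromosome 3 (144822623 to 144849357, minus strand), in GENCODE M21. RefSeq promoter sequence was found for 2 of the 3 genes, not for Zg16. The windows shown run 5′ to 3′ in GRCm38.p6. They cover the 250 bases before a RefSeq start, and stop earlier where a GENCODE exon of the gene begins. Muc13 has 2 RefSeq starts, and both of its windows are shown because this gene was among the most abundant of the table. Capitals mark matches to the motifs searched.
Muc13, first start, chr16:33793787-33794036, plus strand: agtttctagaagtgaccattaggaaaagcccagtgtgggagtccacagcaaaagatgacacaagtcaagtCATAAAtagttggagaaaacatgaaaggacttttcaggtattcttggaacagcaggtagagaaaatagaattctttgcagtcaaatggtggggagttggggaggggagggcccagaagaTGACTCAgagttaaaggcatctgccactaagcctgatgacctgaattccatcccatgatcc
Muc13, second start, chr16:33794239-33794366, plus strand: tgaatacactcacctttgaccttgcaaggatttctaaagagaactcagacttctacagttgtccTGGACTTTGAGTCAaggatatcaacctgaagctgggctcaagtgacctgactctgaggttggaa
The window of the first start holds a CDX core (TTTATG) on the reverse strand 180 bases and an AP-1 element (TGACTCA) 61 bases before the start. The second holds the HNF4A-specific element CAAAGTCCA on the reverse strand, 186 bases before its start, which overlaps an AP-1 element on the reverse strand at 179. The HNF4A-specific element was present in 0.384%, the AP-1 element in 4.46% and the CDX core in 10.8%, of 32851 windows. Neither a TATA box (TATAAA, 12.4% of windows) nor a TCF element (ATCAAAG, 3.21%), each searched on both strands, occurs in the full windows of Muc13. Such matches describe letters only and show no binding.

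Depth, as implied by counts and FPKM, ranged from 23457478 to 29245814 fragments. The second PBS library differed from the rest: it had the highest value for 1022 of the 1040 genes listed as lower in Akk and the lowest for 149 of the 346 listed as higher. The differences of the 3 genes between the groups are therefore given with and without it. Of the 9 epithelial defining markers Krt19 alone was in the table, listed as lower, and none of 14 smooth muscle and stromal or 17 immune cell markers was. Krt19, a keratin, was at 137 to 162 FPKM in Akk and at 388, 880.3 and 305 in PBS libraries 1 to 3, so it was lower in each Akk library, as Clca3b was, by 3.55-fold between the means or 2.35-fold without PBS replicate 2. Its part in the Clca3b result was not tested. Since the table holds selected genes only, the labelled cell type could not be checked further from it.

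Muc13 mRNA was higher in Akk on average, but not in every library. Its FPKM (fragments scaled to gene length and library depth) was 665, 579 and 857 in PBS libraries 1 to 3. In Akk libraries 1 to 3 it was 1291, 1632 and 826. Akk replicates 1 and 2 lay above all PBS libraries, whereas Akk replicate 3 lay between the second highest and the highest PBS library, so the groups overlapped. An Akk library exceeded a PBS library in 8 of 9 pairs. The mean was 1249 ± 405 (SD, n = 3) in Akk and 700.3 ± 143 (SD, n = 3) in PBS, a ratio of 1.78, and the means differed by more than the SD of either group. In bulk RNA of epithelial cells, more RNA per cell and more cells that carry the transcript cannot be told apart. The edgeR fit over all genes gave a log2 fold change of 0.84 (SE 0.38). Counts ran from 57334 to 189029 fragments, for which counting error is at most 0.418% of the value, far below the spread between libraries. Without PBS replicate 2, the lowest of the PBS libraries, the ratio of means was 1.64 and the log2 fold change 0.71 (SE 0.35).

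Zg16 mRNA showed the same direction with a smaller difference. FPKM was 845, 668 and 1205 in PBS libraries 1 to 3. In Akk libraries 1 to 3 it was 1705, 1198 and 1269. PBS replicate 3 lay just above Akk replicate 2, so these groups overlapped as well, again with 8 of 9 pairs higher in Akk. The library that made the overlap differed between the genes: Akk replicate 3 was the low Akk library for Muc13, and Akk replicate 2 for Zg16. Mean FPKM was 1390.3 ± 275 (SD, n = 3) in Akk and 906 ± 274 (SD, n = 3) in PBS, a ratio of 1.53, and the log2 fold change was 0.62 (SE 0.39). Counts ran from 15025 to 47935 fragments, with a counting error of at most 0.816%. Without PBS replicate 2 the ratio was 1.36 and the log2 fold change 0.44 (SE 0.27), with 1025 ± 254 FPKM (SD, n = 2) in the remaining PBS libraries.

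Clca3b mRNA was lower in all Akk libraries than in any PBS library. FPKM was 10.9, 266 and 12.8 in PBS libraries 1 to 3. In Akk libraries 1 to 3 it was 4.48, 5.71 and 5.56. PBS replicate 2 was 22.5-fold above the mean of PBS replicates 1 and 3, and 34 of the 1040 genes listed as lower had a larger excess in that library. Mean FPKM was 5.25 ± 0.668 (SD, n = 3) in Akk and 96.7 ± 147 (SD, n = 3) in PBS, so the PBS mean was smaller than its own SD. The log2 fold change was -4.20 (SE 1.26). Without PBS replicate 2 the groups still did not overlap, with 11.9 ± 1.29 (SD, n = 2) in PBS, which is 2.26-fold the Akk mean, and a log2 fold change of -1.18 (SE 0.20). The counts behind these values were 633, 756 and 690 fragments in the Akk libraries and 1371, 30133 and 1683 in the PBS libraries, with a counting error of at most 3.97%. Leaving out this library thus made the difference much smaller without turning its direction.

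**Figure D1:**
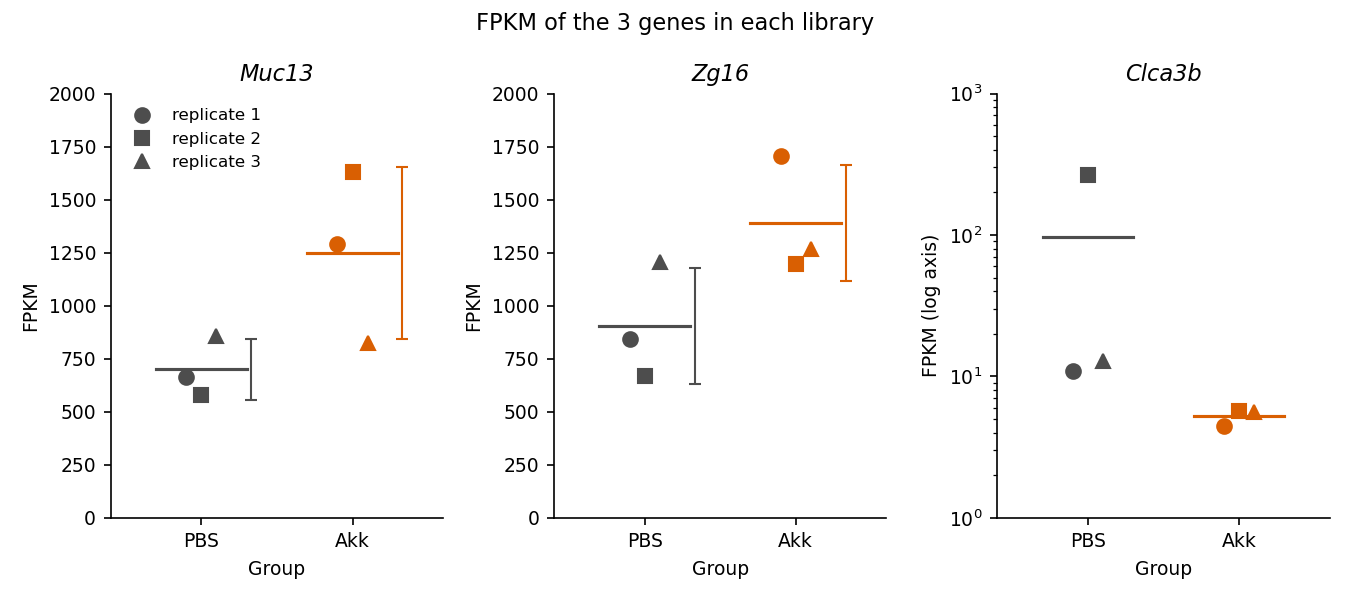
FPKM of Muc13, Zg16 and Clca3b in each library; points are libraries (the symbol gives the replicate), horizontal lines are group means, bars beside the linear panels are ± 1 SD (n = 3), and the Clca3b axis is logarithmic. Muc13 and Zg16 overlap between groups through 1 Akk and 1 PBS library each, whereas the Akk libraries of Clca3b (4.48 to 5.71) lie below the PBS libraries (10.9 to 266).

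FPKM without overlap between the groups, in the direction lower in Akk, was seen for 65.0% of all genes of the table, and 1 of the 3 genes, Clca3b, was of this kind. In the direction higher in Akk it was 9.38%, and neither Muc13 nor Zg16 was of this kind. Without PBS replicate 2 these shares were 65.2% and 11.4%. The shares are over all 1386 genes, whichever way they were listed. Among the 1040 genes listed as lower, 903 had no overlap without PBS replicate 2. The authors listed 75.0% of the genes as lower and 25.0% as higher. All of these shares come from the contrast on which the genes had been selected, and nothing is read from them. The authors' deposited table states log2 fold changes (Akk relative to PBS) of 1.01 for Muc13, 0.81 for Zg16 and -1.80 for Clca3b. For Clca3b that deposited value lay between the fitted values with and without PBS replicate 2. For Muc13 and Zg16 the deposited value lay above both fitted values. Other scaling factors also moved the fitted values of all 3 genes, as given below. The fitted median log2 fold change was 0.74 over the genes listed as higher, close to Muc13 and Zg16, and -2.19 over those listed as lower, where Clca3b was further from 0. These medians were 0.70 and -0.78 without PBS replicate 2, the latter again nearer to 0 than Clca3b (-1.18).

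**Figure D2:**
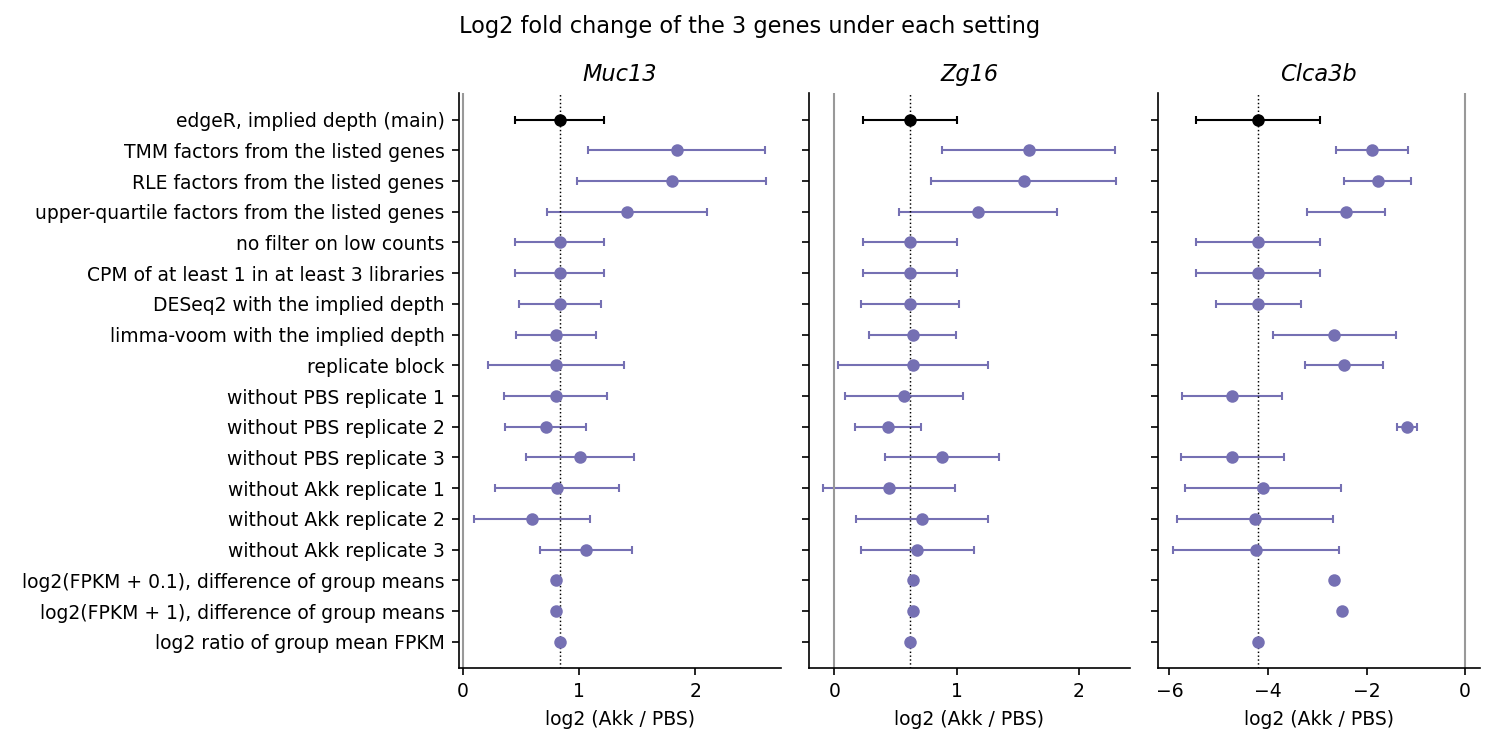
Log2 fold change of Akk over PBS (horizontal axis) for each gene under the reported fit (black) and 17 other settings (purple); bars are ± 1 SE where the fit gives one, the grey line is 0 and the dotted line the reported value. All 17 settings keep the sign for each gene, which selection on this contrast had fixed, and Clca3b moves from -4.20 to -1.18 without PBS replicate 2.

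By FPKM, Zg16 and Muc13 were the 10th and 11th most abundant genes of the table by their mean over the 6 libraries, and Clca3b was the 168th. Zg16 was above Muc13 in 5 of 6 libraries, the exception being Akk replicate 2, where the ratio of Zg16 to Muc13 was 0.734. In the other libraries it was 1.15 to 1.41 in PBS and 1.32 and 1.54 in Akk replicates 1 and 3. Over all libraries of a group the mean ratio was 1.28 ± 0.126 (SD, n = 3) in PBS and 1.20 ± 0.415 (SD, n = 3) in Akk, where Akk replicate 2 alone brings it below the PBS mean. This order depends on the gene length used. The length implied by the authors' counts and FPKM was 962 bases for Zg16, against 1257 bases covered by its GENCODE exons and 723 bases in its longest protein-coding transcript. For Muc13 it was 4223 against 3038 and 2969 bases. Scaled to the combined exon length, Zg16 was above Muc13 in 0 of 6 libraries, and scaled to the longest protein-coding transcript in 5 of 6. The levels of these genes therefore could not be put in a firm order, while comparisons between libraries within a gene do not depend on the length. Clca3b, with 4.48 to 12.8 FPKM outside PBS replicate 2, was far below both under each of the lengths.

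Distinct stretches of 50 bases in the GENCODE transcripts of Muc13, Zg16 and Clca3b were searched in transcripts of other genes, in the same orientation only. In that orientation, 0 of 2654 for Muc13 and 0 of 1203 for Zg16 occur in a transcript of another gene. For Clca3b, 198 of 2962 (6.69%) occur in the paralogs Clca3a1 or Clca3a2, and at 100 bases 18 of 2962 (0.608%) do, in Clca3a2. The sources used here do not give the read length or the treatment of reads that fit several genes. The Clca3b transcript was 82.9% identical to those of Clca3a1 and Clca3a2 over the aligned bases, and 66.2% to that of Clca1. Exons of Gm15657, an antisense gene, overlap exons of Muc13 on the other strand, and since a strand setting is not stated, reads of the pair cannot be told apart.

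Clca3b sits in a cluster of CLCA genes on chromosome 3. Of the 8 family members looked for, 3 were in the table: Clca3b and Clca3a2 were listed as lower in Akk and Clca4a as higher. Clca3a2 (144796559 to 144819494, minus strand), whose start lies 29.9 kb from that of Clca3b, had an FPKM of 0.307, 0.977 and 0.618 in Akk libraries 1 to 3 and 1.14, 9.98 and 1.01 in PBS libraries 1 to 3. It thus shared with Clca3b the high value in PBS replicate 2, 9.30-fold above the mean of PBS replicates 1 and 3, and the groups did not overlap, although Akk replicate 2 came close to PBS replicate 3. Clca4a (144952480 to 144975045, minus strand) went the other way. Its FPKM was 104, 226 and 280.1 in Akk libraries 1 to 3 and 77.9, 13.8 and 113 in PBS libraries 1 to 3, with PBS replicate 2 the lowest library and an overlap between Akk replicate 1 and PBS replicate 3. Clca4a exceeded Clca3b 7.12-fold and 8.85-fold in PBS replicates 1 and 3 and 23.2-fold to 50.4-fold in Akk, whereas in PBS replicate 2 it stood at 0.0516 of the Clca3b level (FPKM of each). Clca3b and Clca4a thus changed places in that library. Clca1, Clca2, Clca3a1 and Clca4b were not listed, so they missed the authors' thresholds or were not measured, which cannot be separated.

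**Figure D3:**
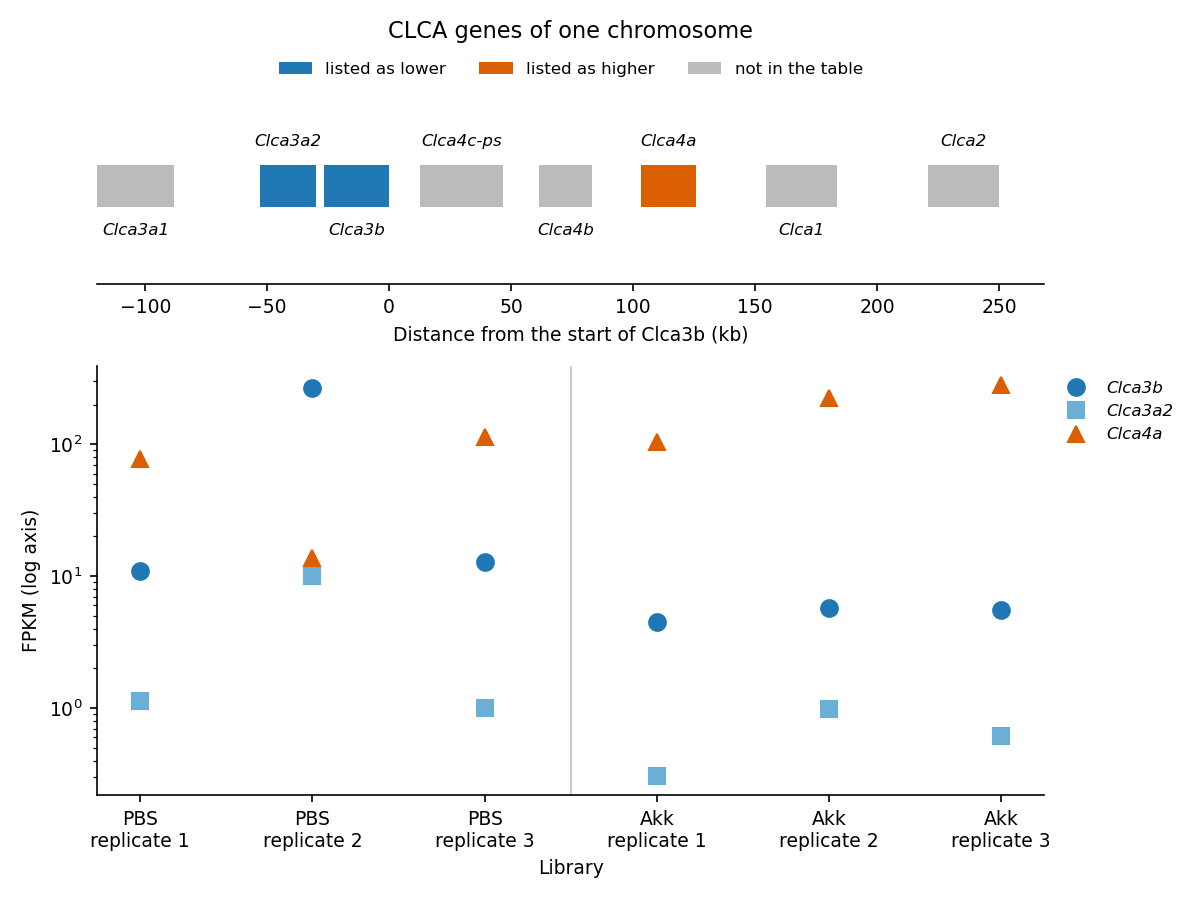
Top, the CLCA genes by distance in kb from the start of Clca3b, coloured by the authors' listing; bottom, FPKM (log axis) of the 3 listed CLCA genes in each library. PBS replicate 2 has the highest Clca3b (266) and Clca3a2 (9.98) and the lowest Clca4a (13.8).

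The rest of the mucus pathway was sparsely represented. Of 18 secreted mucus and goblet cell products, Zg16 was listed as higher and Dmbt1 as lower, and 16 were not listed, among them the gel-forming mucin Muc2, Fcgbp and Tff3. Dmbt1, a secreted scavenger receptor that binds bacteria, was at 36.6 to 48.2 FPKM in Akk. In PBS libraries 1 to 3 it was at 105, 703 and 109.8, so Akk was lower than each PBS library. Of 11 membrane mucin symbols, 8 of which are in GENCODE M21, Muc13 was the one listed.

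Of 28 enzymes that build mucin sugar chains, 2 were listed, both as higher in Akk. B3gnt7, an N-acetylglucosaminyltransferase, had 27.6, 31.4 and 11.4 FPKM in Akk libraries 1 to 3 and 10.3, 13.8 and 13.05 in PBS libraries 1 to 3. B4galnt3, an N-acetylgalactosaminyltransferase, had 7.22, 8.07 and 5.35 FPKM in Akk and 4.08, 3.90 and 6.47 in PBS. In both, as in Muc13, Akk replicate 3 was the low Akk library and fell among the PBS values. Their median difference of mean log2(FPKM + 0.1) was 0.66, against 0.69 over all genes listed as higher, and 0.64 against 0.65 without PBS replicate 2. Of 25 regulators and secretory genes of goblet cells, 3 were listed, all as lower: the chemokine Ccl9, the ion pump regulator Fxyd3 and the transporter Slc12a8. Each was highest in PBS replicate 2, as were 1022 of the 1040 genes listed as lower. Their median difference of mean log2(FPKM + 0.1) was -1.25, against -1.54 over all genes listed as lower, and -0.50 against -0.73 without PBS replicate 2. Levels of Ccl9 and Fxyd3 in Akk were low, at 0.187 to 0.487 and 0.590 to 0.740 FPKM, with 23 to 59 fragments for Ccl9. Ccl9 overlapped between the groups, with 0.860 and 0.330 FPKM in PBS replicates 1 and 3, whereas Fxyd3 and Slc12a8 did not. The goblet cell transcription factors Atoh1, Spdef and Klf4 were not listed. Of 12 luminal lectins, which include Zg16, 4 were listed as higher (Zg16, Reg1, Reg3b and Reg3g) and 2 as lower (Itln1 and Lgals2). The galectin Lgals2 was at 262 ± 4.92 FPKM (SD, n = 3) with Akk, and at 863 ± 671 FPKM (SD, n = 3) with PBS. Without PBS replicate 2, at 1637 FPKM, the PBS mean was 475 ± 29.4 (SD, n = 2), and the ratio of PBS to Akk went from 3.29 to 1.81. The intelectin Itln1 had 29.5 to 35.2 in Akk and 25.9, 692 and 33.3 in the PBS libraries, so outside PBS replicate 2 the groups overlapped.

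Markers of crypt cells moved with Clca3b. Relative to the mean of PBS replicates 1 and 3, PBS replicate 2 was higher by a median of 40.6-fold over the 12 listed of 14 Paneth cell markers, 20.3-fold over the 6 listed of 13 crypt stem cell markers and 11.01-fold over the 19 listed of 20 proliferation genes. Over all 1040 genes listed as lower the median excess was 5.77-fold. The excess of Clca3b, 22.5-fold, lay within the medians of the marker lists. Every one of these listed markers was highest in PBS replicate 2, as were 1022 of the 1040 genes listed as lower. The summed FPKM of the Paneth cell markers was 173 to 207 in Akk and 221 to 9198 in PBS, that of the stem cell markers 7.45 to 10.8 and 13.98 to 629, and that of the proliferation genes 24.3 to 36.5 and 45.5 to 531. In PBS replicates 1 and 3 alone these sums were 221 and 251, 13.98 and 14.96, and 56.8 and 45.5, each above the Akk range. Most of the stem cell sum in PBS was Olfm4, at 7.66, 498 and 9.63 FPKM in PBS libraries 1 to 3. In Akk, Olfm4 was at 4.17 to 6.58 FPKM. None of the listed markers was at 0 in any library. In Akk, the median level relative to PBS replicates 1 and 3 was 0.449 to 0.639 for stem cell markers, 0.470 to 0.684 for proliferation genes and 0.684 to 0.896 for Paneth cell markers, against 0.530 to 0.599 over all genes listed as lower. Clca3b was at 0.378 to 0.482, below the medians of the Paneth cell markers and overlapping those of the stem cell markers and proliferation genes. These are medians of lists, and single markers can lie outside them. The part of these markers in the Clca3b result was not tested.

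Markers of villus enterocytes were lowest in PBS replicate 2, as Muc13 and Zg16 were, with a larger deficit. All 6 listed of 24 enterocyte markers were listed as higher in Akk and lowest in PBS replicate 2, where the mean of PBS replicates 1 and 3 exceeded them by a median of 4.20-fold. Of all 346 genes listed as higher, 149 were lowest in that library, and the same median was 1.13-fold. For Muc13 and Zg16 the same excess was 1.32-fold and 1.54-fold. The summed FPKM of these markers was 5084 to 6556 in Akk and 684.5 to 4027 in PBS (2392 and 4027 in PBS replicates 1 and 3), and none was at 0. Most of this sum was Apoa4, at 3660 to 5057 FPKM in Akk and 1811, 467 and 3101 in PBS libraries 1 to 3. The sum therefore mainly describes that gene. The part of these markers in the Muc13 and Zg16 results was not tested. Without PBS replicate 2, Muc13 and Zg16 remained higher in Akk on average, as given above.

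**Figure D4:**
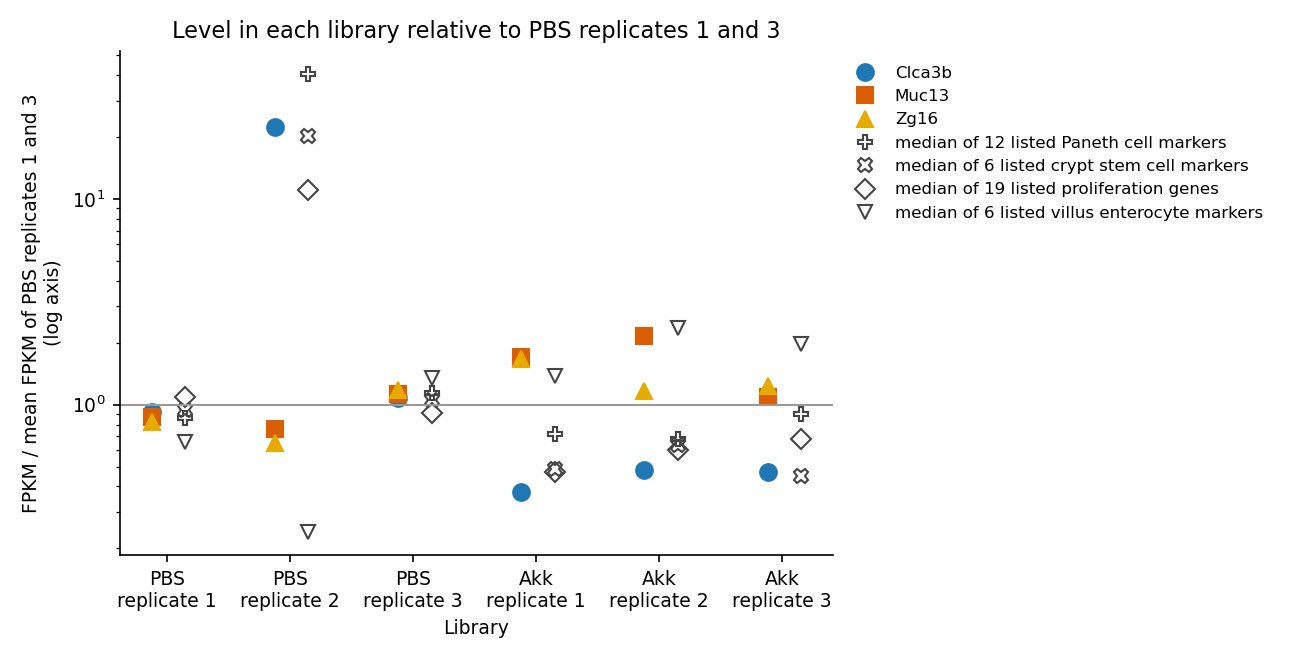
Level in each library divided by the mean FPKM of PBS replicates 1 and 3 (log axis), for the 3 genes (filled) and the medians of 4 marker lists (open). In PBS replicate 2, Clca3b (22.5) lies among the crypt lists (11.01 to 40.6), while Muc13 (0.76), Zg16 (0.651) and the enterocyte markers (0.239) lie below 1.

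The genes of the table with the most similar pattern were found by Pearson correlation of log2(FPKM + 0.1) over the 6 libraries, which share treatment and PBS replicate 2, among genes with a mean FPKM of at least 1. It is a description without a test. For Muc13 the 5 nearest were newGene_3461 (an unnamed locus), Ceacam20, Oit1, Mib2 and Gstt1, with r of 0.978 to 0.983. Ceacam20, an adhesion molecule of the microvillus membrane, had 85.1, 87.6 and 43.4 FPKM in Akk libraries 1 to 3 and 28.8, 23.4 and 43.8 in PBS libraries 1 to 3, with the same low Akk library as Muc13. For Zg16 they were Ccl24, Rdh5, Tmem19, newGene_312 and newGene_5835, with r of 0.967 to 0.979. Ccl24, the chemokine eotaxin-2, had 7.46, 3.07 and 4.85 FPKM in Akk and 0.931, 0.208 and 3.597 in PBS, with the libraries in the same order of level as for Zg16. For Clca3b they were Ttf2, newGene_2756, Igsf8, Hnrnpa1 and Thyn1, with r of 0.999. Of the 1207 genes compared, 835 had r above 0.9 with Clca3b, 64 with Muc13 and 38 with Zg16, so a pattern like that of Clca3b, highest in PBS replicate 2, was the common one of the table. A correlation without that library was not computed, so how far these r values rest on it is not shown. Between the members, r was 0.754 for Muc13 with Zg16, -0.689 for Muc13 with Clca3b and -0.839 for Zg16 with Clca3b.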

How the data were processed

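RNA of mouse intestinal epithelial cells was extracted with Trizol and sequenced as an Illumina mRNA library, per the labels' protocols. The build is mm10, per the submitters' processing notes. The sources used here do not give the aligner, counter, annotation or strand setting. The authors deposited whole-number read counts and FPKM for each library, per the file headers. A p-value (adjusted or not is unstated) and a log2 fold change per gene stand beside them, both deposited by the authors. The largest p-value is 0.0498 and the smallest fold 1.50, so the table holds selected genes only. Left out were 2 lines of annotation text.

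Library depth came from count divided by FPKM, over 560 genes with at least 200 counts in each library, with GENCODE exon lengths for 548 of them. These lengths differ from the lengths the authors used, so relative depth is firmer than absolute depth. Counts were fitted with edgeR 4.0.16 (quasi-likelihood, filterByExpr, R 4.3.3) over all 1386 entries, with this depth as library size and no replicate term; the SE is the log2 fold change divided by the square root of F. Alternatives were TMM, RLE and upper-quartile factors, other count filters, DESeq2 1.42.0, limma-voom 3.58.1, FPKM with pseudocounts of 0.1 and 1, a replicate block and each library left out. The members, gene lists and alternatives were chosen with earlier results of these data known. The text names the 3 members, listed members of the mucus lists and, for each member, the 5 genes of most similar pattern. Some promoter sequence is not reported here.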

Additional observations from a re-analysis of the deposited data

How the results depend on the processing

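Each gene kept its sign under all 17 alternatives. The direction had been fixed by selection on this contrast, so a kept sign is no support for it. Scaling factors computed from the table itself raised its median log2 fold change, -1.85, by 1.68 (TMM), 1.70 (RLE) and 1.22 (upper quartile). Under TMM, RLE and upper-quartile factors the value was 1.84, 1.80 and 1.41 for Muc13 and 1.59, 1.55 and 1.17 for Zg16. For Clca3b it was -1.89 under TMM, -1.78 under RLE and -2.42 under upper-quartile factors. Relative to the median of all genes, Muc13 and Zg16 stayed above it and Clca3b below it under each scaling. Without any single library the values were 0.60 to 1.06 for Muc13, 0.44 to 0.88 for Zg16 and -4.73 to -1.18 for Clca3b, the last without PBS replicate 2. Averaging on a log scale also gave smaller values for Clca3b, -2.65 with limma-voom and -2.66 and -2.50 with log2 FPKM at pseudocounts of 0.1 and 1. Filtering on low counts left out no gene and says nothing about stability. With the replicate number as a block the values were 0.80 (SE 0.58), 0.65 (SE 0.61) and -2.45 (SE 0.79) for Muc13, Zg16 and Clca3b. The numbers were not taken to pair the libraries: deviations of same-numbered libraries from their group means correlated across genes at 0.225, -0.059 and -0.301, and not every library correlated best with its own number. Counting error was at most 3.97% of a count, below the SD between libraries in either group for each gene.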

Other observations

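Akk replicate 3 divided the genes listed as higher that were looked at here. Over all 346 genes listed as higher, the median level in Akk replicates 1 to 3 was 1.68, 1.77 and 1.25. This level is relative to the mean of PBS replicates 1 and 3. Akk replicate 3 was thus the lowest Akk library in the median of that listing too. Muc13 (826 FPKM against 1291 and 1632 in Akk replicates 1 and 2) was at PBS levels in Akk replicate 3. So were the sugar-chain enzymes B3gnt7 (11.4 against 27.6 and 31.4) and B4galnt3 (5.35 against 7.22 and 8.07). Gstt1 (22.4 against 41.4 and 46.9) was as well, but it had been chosen for its correlation with Muc13 over these libraries and adds nothing here. Clca4a, by contrast, had its highest value there (280.1 against 104 and 226), as did the lectin Reg1 (191 against 112 and 160). Zg16 in Akk replicate 3 (1269) lay between the other Akk libraries. Without Akk replicate 3 the mean FPKM of Muc13 in Akk was 1461 ± 241 (SD, n = 2) and its log2 fold change 1.06 (SE 0.40). What sets this library apart was not tested.

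Clca3b was lower in Akk than in PBS replicates 1 and 3 by more than the spread within either group, with coefficients of variation of 12.7% in Akk and 10.8% in the 2 PBS libraries. This comparison leaves out a library after its values were seen, and Clca3b was in the table because it differed on this contrast. Without that library, 903 of the 1040 genes listed as lower also showed no overlap, so the gap is not particular to Clca3b. Clca3a2, whose transcript shares sequence with Clca3b, had 1.07 ± 0.0901 (SD, n = 2) in PBS replicates 1 and 3 and 0.634 ± 0.336 (SD, n = 3) in Akk. The ratio of Clca3b to Clca3a2 (FPKM) ranged from 5.84 to 14.6 in Akk and was 9.63, 26.7 and 12.6 in PBS replicates 1 to 3, so the pair did not keep a constant ratio.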
